A study of Mus musculus with 9 samples.

Results

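Transcripts of 10 heat shock protein genes were followed in the ageing mouse seminal vesicle, the male accessory gland that secretes much of the seminal fluid. The genes were chosen by name, as the rows of the count table whose Ensembl identifier belongs to Hspa1a, Hspa1b, Hspa8, Hsph1, Dnajb1, Hsp90aa1, Hsp90ab1, Hspb1, Hspd1 or Hspe1, which makes 10 of the 53379 genes in the table. All 10 were found, and all 10 had enough counts to be tested. RNA was sequenced from seminal vesicle at 3, 13 and 21 months of age, with 3 libraries per age and 9 in all. The labels used here give tissue and age, and they name no strain, treatment or housing. They also do not say that replicates are separate animals, so that p-values measure only the spread between these libraries, which may in part be technical. The proteins of 8 of the genes work mainly in the cytosol and nucleus. Those of Hspd1 and Hspe1 work in the mitochondrial matrix, so the set is called heat shock protein genes here and not cytosolic ones.

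Heat shock proteins are chaperones: they bind unfolded or partly folded proteins, keep them from aggregating and help them fold. Some are made at all times as housekeeping chaperones, and others are made in quantity only after heat or another stress that unfolds proteins. In mammals the stress response is driven by the transcription factor HSF1, which the chaperones hold inactive in resting cells and which binds heat shock elements, inverted repeats of the unit nGAAn, in the promoters of its targets. The seminal vesicle is a secretory epithelium wrapped in smooth muscle. Its exported proteins fold in the endoplasmic reticulum, which has chaperones of its own.

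The promoter sequences are shown because heat shock genes are known as targets of a shared regulator, and so that the matches to its element can be seen. RefSeq promoter windows, from 250 bases before to 50 after an annotated start (build GRCm38.p6), were found for 7 of the 10 genes. The genes without an entry in the table were Hspa8, Hsp90aa1 and Hsp90ab1. The sequences are printed 5′ to 3′ on the strand named, and capitals mark the GAA and TTC units of a match.
Hspa1a, chr17:34972157-34972276, minus strand: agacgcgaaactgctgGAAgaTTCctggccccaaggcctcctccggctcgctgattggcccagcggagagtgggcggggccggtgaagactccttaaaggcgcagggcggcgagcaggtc
Hspa1b, chr17:34959239-34959358, minus strand: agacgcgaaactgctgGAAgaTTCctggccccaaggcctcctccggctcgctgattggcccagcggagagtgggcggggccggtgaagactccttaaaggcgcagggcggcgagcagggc
Hspb1, chr5:135887789-135887858, plus strand: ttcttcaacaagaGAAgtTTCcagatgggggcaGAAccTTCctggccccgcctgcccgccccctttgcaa
Hsph1, chr5:149636354-149636381, minus strand: tgggtagaatctTTCtcGAAggctcgag
Hspd1 and Hspe1, chr1:55088054-55088081, plus strand: gtccgTTCtaGAAccTTCcgGAAggccc

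Both strands were searched for a run of 3 units, GAANNTTCNNGAA or its reverse complement TTCNNGAANNTTC, and for runs of 2 units, GAANNTTC and TTCNNGAA, which are their own reverse complements and lie inside the longer run. Hspd1 and Hspe1 are transcribed away from each other, and the stretch printed for them held 2 overlapping runs of 3 units. All 28 of its bases lie in an annotated Hspd1 exon, and 23 of the bases printed for Hsph1 lie in an exon as well, while those of Hspa1a, Hspa1b and Hspb1 hold none. The 2 runs lie at -89 and -84 from the Hspe1 start and at -144 and -139 from the second of 2 Hspd1 starts. The window of the other Hspd1 start did not contain these letters. Hsph1 held a run of 2 units at -33 from its first RefSeq start, as printed, and a run of 3 units after the start. In Hspa1a and in Hspa1b a run of 2 units began at -104, and Hspb1 held such runs at -117 and -97. Neither Dnajb1 window contained them. Of all 32851 promoter windows of the same length, 0.603% held a run of 3 units and 15.1% held a run of 2, so a match of 2 units is common. A match describes the letters and is not evidence of binding. Only exact matches inside these windows were searched, so a missing match is not evidence that a gene lacks an element.

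Hspa1a (GRCm38 chromosome 17, 34969190 to 34972156) and Hspa1b (chromosome 17, 34956436 to 34959238) are neighbours on the same strand and encode nearly the same inducible HSP70. Their coding sequences of 1923 and 1926 bases differ at 8 aligned positions and a gap of 3 bases, which leaves 99.43% identical, and the longest identical stretch is 638 bases. How reads that map to both places were counted is not given in the sources used here, so the division of counts between the pair is uncertain, and the summed pair is reported beside each gene. Hspa1a also overlaps 564 exonic bases of Gm20481 on the opposite strand, and Hspd1 and Hspe1 overlap each other by 112 bases on opposite strands. The strand setting of the counting is not given, so reads in these overlaps cannot be assigned to one gene. Hspa8 overlaps 86, 86 and 90 exonic bases of the small nucleolar RNA genes Snord14c, Snord14d and Snord14e. These lie on its own strand, where no strand setting could separate the reads. Hspd1-ps3, a processed copy of Hspd1 with its own entry, held 1084 counts over the 9 libraries, against 11114 for Hspd1.

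Total counts ranged from 16536160 to 24791943 per library, and a floor of 3 counts corresponds to 0.121 to 0.181 CPM (counts relative to the library total). Replicates 1 and 2 at 21 months stood apart from the other 7 libraries, at 61.0 and 63.8 on the first principal component against -40.6 to 5.30. Transcripts of the secretory epithelium list made up 52.6% to 58.0% of counts in the 6 libraries of 3 and 13 months and 21.1% to 52.5% at 21 months. Of 5 markers of prostate epithelium, all were detected in 21-month replicate 1, summing to 24730 CPM. In the other 8 libraries the same 5 markers summed to at most 0.721 CPM. The 6 markers of fat cells summed to 2946 CPM in 21-month replicate 2, to 403 CPM in replicate 1 and to at most 22.2 CPM elsewhere. In 21-month replicate 3 the prostate markers Tgm4, Pbsn, Msmb and Spink5 and the fat markers Adipoq, Plin1 and Cidec were at 0. To offset such shifts in composition, levels below were scaled by TMM (trimmed mean of M values), whose factors were 1.64, 1.34 and 0.979 in 21-month replicates 1 to 3 and 0.815 to 0.988 in the other libraries.

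The order of the levels was led by the constitutive chaperones. Per kilobase of exon and averaged over the 9 libraries, Hsp90ab1 stood at 152 ± 43.6 TMM-scaled CPM per kb (SD, n = 9) and Hspa8 at 62.4 ± 21.7. Hspb1 followed at 27.1 ± 5.13, Hspd1 at 22.9 ± 3.37 and Hsp90aa1 at 19.6 ± 4.95. In every library these 5 genes were above Hspa1a, Hspa1b, Dnajb1 and Hsph1. Hspe1 stood at 10.9 ± 2.28 CPM per kb, Hspa1b at 6.81 ± 4.71, Dnajb1 at 4.63 ± 1.55, Hsph1 at 3.88 ± 2.26 and Hspa1a at 2.51 ± 1.08. Hsp90ab1 was above Hspa8, Hspa8 above Hspb1 and Hsp90aa1 above Hspe1 in 9 of 9 libraries. The other neighbours in the order changed places in at least 1 library, and Hspb1 was above Hspd1, and Dnajb1 above Hsph1, in 7 of 9. By mean CPM without regard to length, Hsp90ab1 lay at percentile 99.6 of all tested genes, Hspa8 at 99.2 and Hspa1a at 48.1. The places between depended on length: Hsp90aa1 at percentile 93.7 and Hspd1 at 91.3 lay above Hspb1 at 78.5, and Hsph1 lay at 78.7. The merged exon length was 7266 bases for Hsph1 and 1031 for Hspb1.

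Hspa1a and Hspa1b encode the HSP70 that is the classical marker of the heat shock response. Hspa1b stood at 13.7, 14.9 and 14.9 TMM-scaled CPM in replicates 1 to 3 at 3 months, at 9.76, 11.6 and 19.4 at 13 months and at 52.8, 22.1 and 12.6 at 21 months. A single library, 21-month replicate 1, was far above the rest at 3.64 times the 3-month mean, replicate 2 was above all 3-month libraries, and replicate 3 was below all 3 of them. Hspa1a stood at 5.01, 6.60 and 7.18 CPM at 3 months, at 4.67, 6.57 and 7.16 at 13 months and at 15.5, 7.93 and 6.27 at 21 months, with the same library on top. At both genes the 13-month range took in most or all of the 3-month values, and the 21-month range overlapped that of each younger age. The log2 difference between 21 and 3 months was 1.01 ± 0.453 (SE) for Hspa1b, with a 95% interval from -0.00374 to 2.02, and its adjusted p was 0.207 in the edgeR quasi-likelihood test. For Hspa1a it was 0.67 ± 0.327 with an adjusted p of 0.24, and for the summed counts of the pair 0.91 ± 0.408 with an adjusted p of 0.205. In bulk tissue, a change in the number of cells of a type and a change in RNA per cell cannot be told apart.

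**Figure D1:**
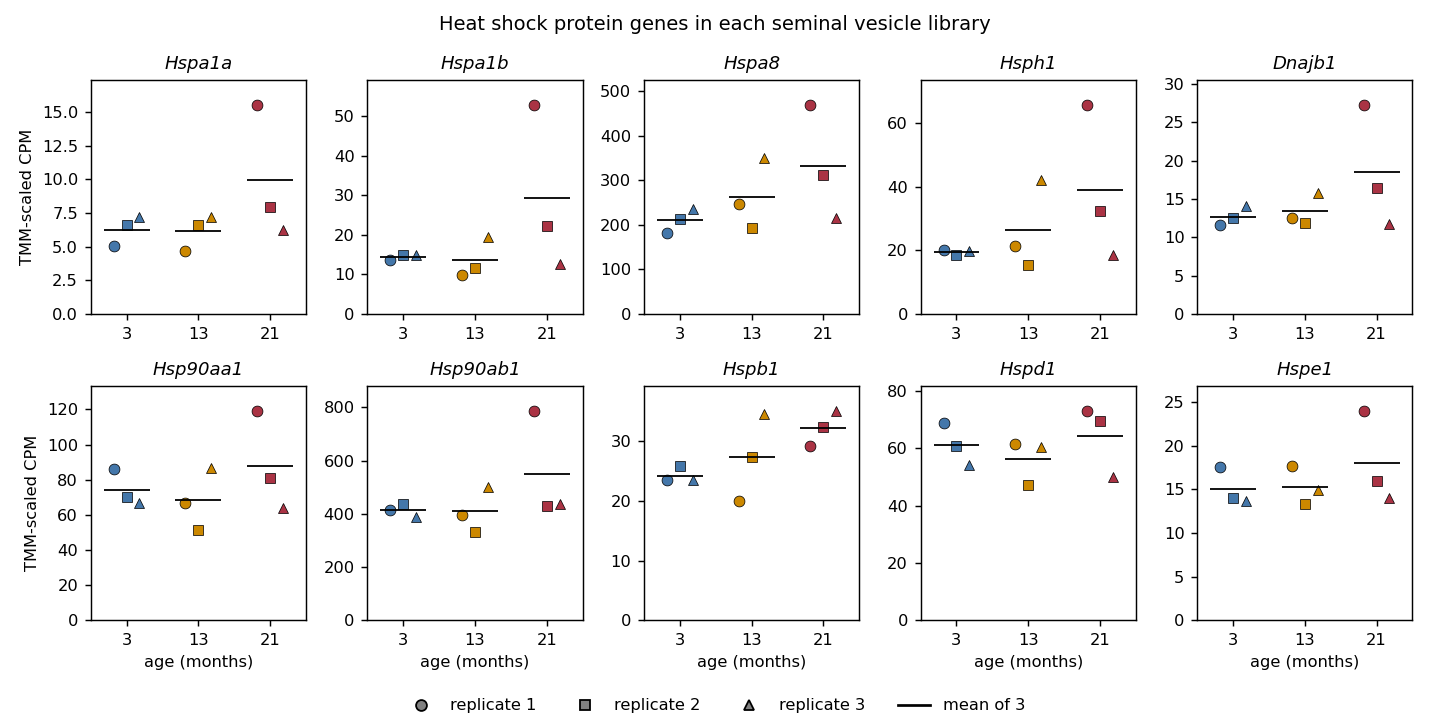
TMM-scaled CPM (y axes, each starting at 0) of the 10 heat shock protein genes in every library, by age in months (x axes), with marker shape for the replicate number and a line for the mean of 3 libraries. 21-month replicate 1 (circle) is the highest point in 9 of the 10 panels, and in Hspb1 the highest is 21-month replicate 3.

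Hspa8 (chromosome 9, 40800984 to 40810087) encodes the constitutive HSP70, HSC70, which folds new proteins and strips clathrin from vesicles. Its level was 181, 214 and 235 TMM-scaled CPM at 3 months, 247, 193 and 349 at 13 months, followed by 469, 312 and 215 at 21 months. The 2 highest libraries were thus 21-month replicate 1 and 13-month replicate 3, while 21-month replicate 3 lay within the 3-month range. At 21 against 3 months the log2 difference was 0.66 ± 0.29, with an unadjusted p of 0.0468 and an adjusted p of 0.197. Hsph1 (chromosome 5, 149614287 to 149636376) encodes HSP110, the nucleotide exchange factor that resets HSP70. It stood at 20.2, 18.4 and 19.7 CPM at 3 months, 21.4, 15.4 and 42 at 13 months, followed by 65.7, 32.4 and 18.7 at 21 months. The 3-month libraries were close together, and 13-month replicate 3 (2.17 times the 3-month mean) and 21-month replicates 1 (3.38 times) and 2 (1.67 times) stood above them. The log2 difference at 21 against 3 months was 1.0 ± 0.454, with an adjusted p of 0.21. Dnajb1 (chromosome 8, 83608193 to 83612653) encodes the J-domain protein HSP40, which delivers clients to HSP70 and starts its ATP cycle. Its level was 11.6, 12.5 and 14.0 CPM at 3 months, 12.5, 11.8 and 15.7 at 13 months, followed by 27.3, 16.4 and 11.8 at 21 months. The same pattern held, with 21-month replicate 1 on top and replicate 3 among the younger libraries, and the log2 difference was 0.55 ± 0.267 with an adjusted p of 0.241.

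HSP90 is the abundant ATP-driven chaperone of kinases and of steroid receptors, among them the androgen receptor on which this gland depends. Hsp90ab1 (chromosome 17, 45567775 to 45573271), the constitutive form, stood at 415, 437 and 388 TMM-scaled CPM at 3 months, 397, 331 and 499 at 13 months, followed by 785, 428 and 436 at 21 months. Replicate 1 at 21 months stood clear of the rest, and the other 21-month libraries lay within the 3-month range. The log2 difference at 21 against 3 months was 0.41 ± 0.246, with an adjusted p of 0.326. Hsp90aa1 (chromosome 12, 110690605 to 110702728), the stress-inducible form, ranged from 66.8 to 86.2 CPM at 3 months, from 51.3 to 86.8 at 13 months and from 64.0 to 119 at 21 months. Its log2 difference at 21 against 3 months was 0.24 ± 0.246, with an adjusted p of 0.569.

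Hspb1 (chromosome 5, 135887919 to 135889563) encodes HSP27 (HSP25 in mouse), a small heat shock protein that holds unfolded proteins without ATP and is plentiful in muscle and epithelium. It differed from the other members in its order of libraries. Its level was 23.4, 25.8 and 23.5 TMM-scaled CPM at 3 months, 19.9, 27.3 and 34.6 at 13 months, followed by 29.1, 32.4 and 35 at 21 months. The 3 libraries at 21 months were all above the 3 at 3 months, replicate 3 at 21 months was the highest of all, and replicate 1 was the lowest of its age. No overlap of this kind, with the older age higher, was found for 14.8% of all tested genes, and for 1 of the 10 members. The log2 difference was 0.41 ± 0.177, with a 95% interval from 0.011 to 0.81, an unadjusted p of 0.0452 and an adjusted p of 0.194. In TMM-scaled CPM the sum of 8 smooth muscle markers was 2899, 3669 and 4126 in the 3-month libraries, 2626, 4739 and 5342 at 13 months, followed by 3105, 5618 and 4116 at 21 months. The muscle sum overlapped between 3 and 21 months, unlike Hspb1, and its part in the Hspb1 values was not tested.

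Hspd1 (chromosome 1, 55077835 to 55088243) and Hspe1 (chromosome 1, 55088132 to 55091307) encode HSP60 and HSP10, the barrel and the lid of the mitochondrial chaperonin. Hspd1 varied little, from 54.1 to 68.7 TMM-scaled CPM at 3 months, from 47.2 to 61.4 at 13 months and from 49.8 to 72.8 at 21 months. Hspe1 ranged from 13.7 to 17.6 CPM at 3 months, from 13.4 to 17.7 at 13 months and from 14.0 to 24.0 at 21 months. The ages overlapped for both. Hspd1 had the smallest log2 difference of the set at 21 against 3 months, 0.067 ± 0.17 with an adjusted p of 0.833, and the 95% interval of its fold ran from 0.805 to 1.36. That of Hspe1 was 0.25 ± 0.207, with an adjusted p of 0.477. Per kilobase, the ratio of Hspe1 to Hspd1 was 0.442 ± 0.0254, 0.488 ± 0.0404 and 0.502 ± 0.09 at 3, 13 and 21 months (SD, n = 3).

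Between 13 and 3 months no member was called different. The count was 0 of 10 in edgeR at an adjusted p under 0.05, against 0.454% of all tested genes, and 0 of 10 in DESeq2 and in limma-voom. At an unadjusted p under 0.05 it was also 0 of 10, against 7.24% of all tested genes. The log2 differences ran from -0.122 for Hsp90aa1 to 0.44 for Hsph1, 5 of 10 were positive, and the median was 0.0024 beside 0.0078 over all tested genes. Adjusted p-values lay between 0.881 and 0.995. For no member did all 3 libraries of 13 months lie above all 3 of 3 months, as they did for 8.18% of all tested genes. Within the 13-month libraries, replicate 3 was the highest for 8 of the 10 members, as it was for 30.8% of all tested genes. Without it the median of the members was -0.114 and 2 of 10 were positive, and without 13-month replicate 1 or 2 the median was 0.109 or 0.112.

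Between 21 and 3 months, the widest age interval in the study, all 10 fitted differences were positive and none was called. Again 0 of 10 passed an adjusted p under 0.05 in edgeR, against 2.02% of all tested genes, and 0 of 10 did so in DESeq2 and in limma-voom. At an unadjusted p under 0.05 the count was 2 of 10 (Hspa8 and Hspb1), against 24.4% of all tested genes. The median log2 difference was 0.479, with a range from 0.067 to 1.01, beside 0.0074 over all tested genes, whose interquartile range ran from -0.219 to 0.341. Adjusted p-values lay between 0.194 for Hspb1 and 0.833 for Hspd1. The largest differences belonged to Hspa1b and Hsph1, each with a fold of 2.01, and the 95% intervals of the fold ran from 0.997 to 4.07 and from 0.992 to 4.06.

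Between 21 and 13 months all 10 differences were positive as well, with a median of 0.395 and a range from 0.185 to 1.10. None was called in edgeR, DESeq2 or limma-voom, and of all tested genes edgeR called 1 (0.00622%), Thbs1, which is named because it was the single call. At an unadjusted p under 0.05 the count was 1 of 10, Hspa1b with an adjusted p of 0.292, against 15.7% of all tested genes. The 21-month libraries lay above all 13-month ones for 0 of 10, against 7.99% of all tested genes. This comparison shares its 21-month libraries with that of 21 against 3 months, so the values are given side by side: 1.10 and 1.01 for Hspa1b, 0.69 and 0.67 for Hspa1a, 0.56 and 1.0 for Hsph1, and 0.34 and 0.66 for Hspa8. Hspa8 and Hsph1, whose values differ most between the comparisons, were both high in 13-month replicate 3. For the summed counts of Hspa1a and Hspa1b the log2 difference at 21 against 13 months was 0.985 ± 0.407, with an adjusted p of 0.294 in edgeR.

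**Figure D2:**
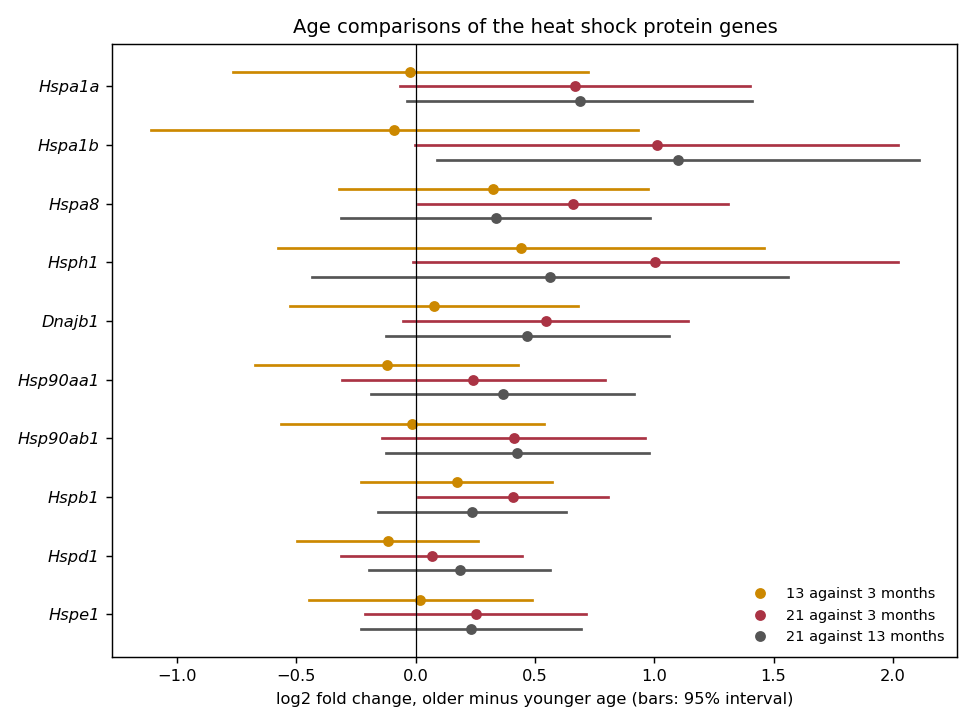
Log2 fold change of each heat shock protein gene (x axis, older minus younger age) in the 3 age comparisons, with points for the edgeR estimate and bars for the 95% interval. Estimates for 13 against 3 months lie on both sides of 0, those involving 21 months are all positive, and adjusted p is above 0.05 for every point.

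The positive differences at 21 months rested on which libraries entered. Without 21-month replicate 1, the library with prostate markers, the median log2 difference to 3 months was 0.174 with 7 of 10 positive and none called. With replicate 3 standing alone for 21 months, a library where those markers and the fat markers were at or near 0, the median was -0.0803 with 4 of 10 positive, the lone library being assumed to vary like the other ages. Without replicate 3, the median was 0.656 and 2 members were called higher, Hspa1b at 1.36 (adjusted p = 0.0402) and Dnajb1 at 0.77 (adjusted p = 0.0473). Of all 16751 genes tested in that fit, 2349 were called at 21 against 3 months and 1244 at 21 against 13 months. Over all alternatives the adjusted p ran from 0.0259 to 0.864 for Hspa1b and from 0.027 to 0.894 for Dnajb1. Hspb1 alone was at least as far from 3 months in replicate 3 (0.53) and without replicate 1 (0.48) as with all libraries (0.41), though it was called in neither. Against 13 months, leaving out replicate 1 gave a median of 0.0829, and leaving out replicate 3 called 1 member, Hspa1b at 1.44 (adjusted p = 0.0456, with 0.0456 to 0.999 over all alternatives).

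The calls at 21 against 3 months also depended on the scaling. By library totals alone, without TMM, 9 of 10 members were called higher at 21 than at 3 months, all but Hspd1, and the median of the members was 1.18. The same scaling moved the median of all tested genes from 0.0074 to 0.616 and called 5695 genes. Under both scalings the median of the members was above that of all tested genes. The part of the prostate, fat and secretory transcripts in these results was not tested.

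**Figure D3:**
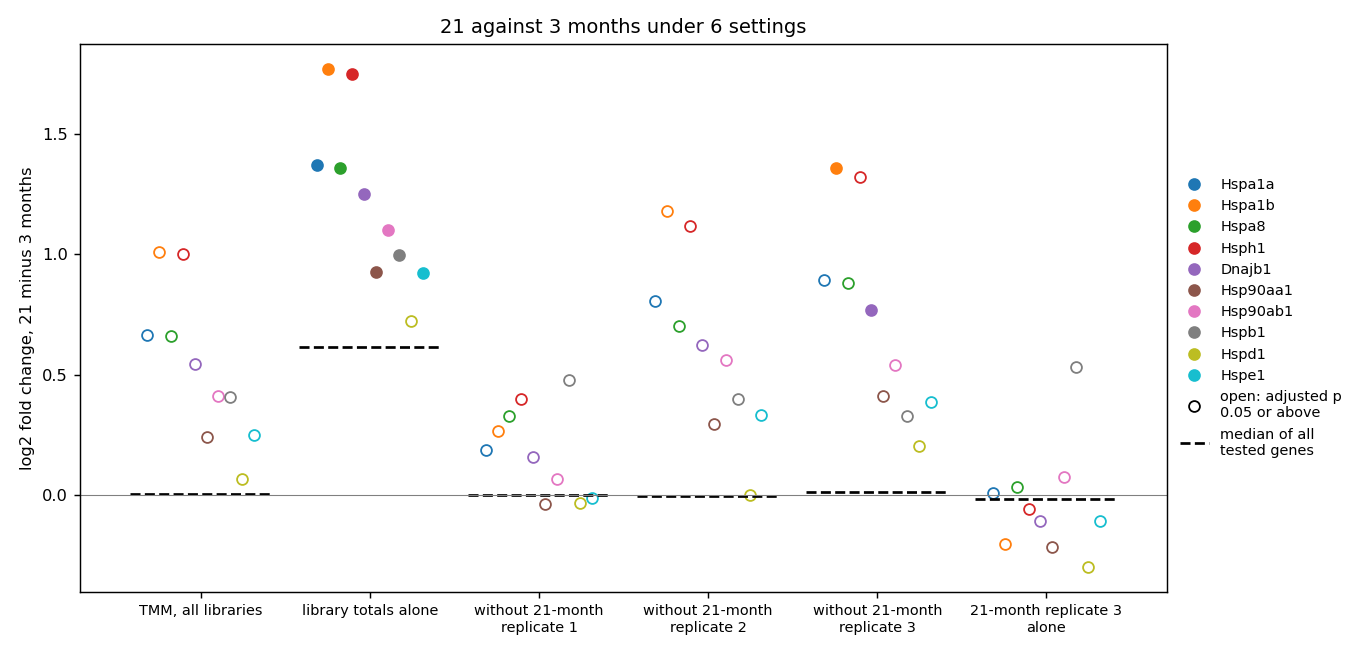
Log2 fold change of the 10 heat shock protein genes at 21 against 3 months (y axis) under 6 settings (x axis), with filled points where the adjusted p is under 0.05 and a dashed line for the median of all tested genes. With library totals alone the points and the dashed line shift up together and 9 of 10 points are filled, and with replicate 3 standing alone for 21 months all but Hspb1 scatter around 0.

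Most members ranked the 21-month libraries in the same order. In 21-month replicate 1 the level was the highest of the 9 libraries for 9 of 10 members, against 16.8% of all tested genes. Replicate 2 was the highest for 0 of 10, against 21.2%, and replicate 3 for 1 of 10 (Hspb1), against 5.35%. The order replicate 1 above 2 above 3 within 21 months held for 8 of 10, all but Hspb1 and Hsp90ab1, against 15% of all tested genes. Relative to the 3-month mean, the median log2 ratio of the members was 1.01 in 21-month replicate 1, 0.353 in replicate 2 and -0.08 in replicate 3. It was -0.038, -0.247 and 0.29 in 13-month replicates 1 to 3, while the median over all tested genes lay between -0.0143 and -0.00412 in each of these 6 libraries. Together the 10 genes took 0.0724% to 0.0744% of counts at 3 months and 0.0699% to 0.102% at 13 months. They took 0.261%, 0.136% and 0.0843% in 21-month replicates 1 to 3, and these shares are of the library total, in which the secretory transcripts also differ.

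The spread between replicates was wider at the older ages. The coefficient of variation of TMM-scaled CPM was higher at 21 than at 3 months for 10 of 10 members, as for 68.6% of all tested genes. At 13 against 3 months it was higher for 9 of 10, as for 59.2%. Among the members it ran from 4.74% to 17.9% at 3 months, from 14.1% to 53.2% at 13 months and from 9.17% to 72.1% at 21 months, and the medians of all genes were 11.7%, 14.3% and 18.9%. In the fitted model Hsph1 and Hspa1b had a biological coefficient of variation of 38.3% and 38.1%, at percentiles 93.4 and 93.3 of all tested genes. Hspb1 and Hspd1, at 17.1% and 17.0%, were close to the median of 18.5%.

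Ratios within a library do not depend on its scaling. The ratio of the inducible HSP70 pair to constitutive Hspa8, per kilobase, was 0.156, 0.151 and 0.142 in the 3-month libraries, 0.0881, 0.141 and 0.115 at 13 months, followed by 0.221, 0.146 and 0.132 at 21 months. It was highest in 21-month replicate 1, lowest in 13-month replicate 1, and in the other 21-month libraries it was near or below the 3-month values. Inducible Hsp90aa1 relative to constitutive Hsp90ab1 was 0.137 ± 0.0193, 0.126 ± 0.00764 and 0.124 ± 0.0174 at 3, 13 and 21 months (SD, n = 3), differences smaller than the spread between replicates. Hsph1 relative to Hspa8 was 0.0554 ± 0.00912, 0.0566 ± 0.0129 and 0.0652 ± 0.0161.

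As a description over the 9 libraries, which share the outlying 21-month replicate 1, the log2 level of the summed HSP70 pair was set against that of each other member. Pearson's r was 0.963 for Dnajb1, 0.892 for Hsp90ab1, 0.881 for Hsph1, 0.858 for Hspa8 and 0.809 for Hsp90aa1, and 0.411 for Hspb1. Without the 2 libraries farthest from the median of the pair, 21-month replicate 1 and 13-month replicate 1, r over the remaining 7 was 0.973 for Dnajb1, 0.92 for Hspa8 and 0.861 for Hsph1. It was then 0.579 for Hsp90aa1 and 0.549 for Hsp90ab1, down from 0.809 and 0.892, and 0.219 for Hspe1, down from 0.665, so these relations rested in part on those libraries. Among 11214 named genes outside the set with a mean log2 CPM of at least 1, of which 1.07% had an r above 0.9, the 5 closest to the pair were Tiam2 (r = 0.978), Nab2 (0.974), Mtus1 (0.974), Ctnnal1 (0.969) and Emb (0.969). Each was highest in 21-month replicate 1, Tiam2 at 23.8 TMM-scaled CPM against 0.65 to 2.67 in the other libraries. Without the same 2 libraries their r ran from 0.789 for Emb to 0.935 for Mtus1.

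The other genes of the chaperone network were read from 8 lists of 68 genes, of which 66 were tested. In edgeR none was called at 13 against 3, 21 against 3 or 21 against 13 months, against 0.454%, 2.02% and 0.00622% of all tested genes. The median log2 differences were 0.0206, 0.0065 and 0.013 in the same order. Hspa1l and Hspb3 had too few counts to be tested. At 21 against 3 months, no overlap with the older age higher was found for 14.8% of all tested genes. It was found for 3 of 4 heat shock factors and regulators, 2 of 5 other small heat shock proteins and 3 of 9 HSP70 cochaperones. The counts were 1 of 6 other HSP70 genes, 2 of 10 J-domain genes, 0 of 14 HSP90 cochaperones, 0 of 8 cytosolic chaperonin subunits and 1 of 10 mitochondrial genes. No overlap with the older age lower was found for Bag1, an HSP70 cochaperone, and for the HSP90 cochaperones Cdc37 and Fkbp4. It was also found for the chaperonin subunits Cct5 and Cct6a and the mitochondrial genes Clpb and Clpp. The share of all tested genes in that direction was not computed. Among the heat shock factors, Hsf1, the master regulator, stood at 10.4 to 11.2 TMM-scaled CPM at 3 months and at 13.0 to 14.7 at 21 months, without overlap, at a log2 difference of 0.35 ± 0.111 (adjusted p = 0.107). Hsf4, a family member best known from the lens, was at 0 to 3 counts per library at 3 months and 18 to 29 at 21 months, with an adjusted p of 0.0707 in edgeR and 0.0249 in DESeq2 (0.012 to 0.334 over all alternatives). The fitted log2 difference of 2.68 ± 0.695 for Hsf4 depends on the prior count at such low levels.

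Small heat shock proteins other than Hspb1 gave the smallest adjusted p of the chaperone lists. Hspb8, which works with the cochaperone Bag3 in clearing misfolded proteins by autophagy, stood at 11.2, 14.7 and 14.4 TMM-scaled CPM at 3 months, 14.4, 23.2 and 25.7 at 13 months, followed by 26.9, 35.4 and 22.2 at 21 months. All 21-month libraries were above all 3-month ones, replicate 3 included. The log2 difference was 1.07 ± 0.238 with an adjusted p of 0.0552 in edgeR and 0.00212 in DESeq2, and it ran from 0.00212 to 0.368 over all alternatives. Bag3 differed by 0.75 ± 0.249 (adjusted p = 0.117). Bag6, a cochaperone of membrane protein quality control, differed by 0.58 ± 0.148 (adjusted p = 0.0702 in edgeR and 0.0148 in DESeq2). Neither gene overlapped between 3 and 21 months, as was so with the older age higher for 14.8% of all tested genes. Hspb7, the cardiovascular small heat shock protein, differed by 1.19 ± 0.389 (adjusted p = 0.112 in edgeR and 0.042 in DESeq2). It was highest in 21-month replicate 2 at 10.3 CPM against 2.19 to 5.04 elsewhere. Hspa12a, a distant HSP70 relative, was likewise highest in that library at 13.8 CPM against 1.27 to 3.49 elsewhere (log2 difference 1.59 ± 0.673, adjusted p = 0.185). Hspa12b, its relative of the endothelium, stood at 7.21 CPM there and at 1.24 to 3.13 elsewhere, a log2 difference of 1.05 ± 0.462 at 21 against 13 months (adjusted p = 0.314). Replicate 2 at 21 months was also the highest library for 6 of 6 fat cell, 5 of 5 nerve, 5 of 5 macrophage, 7 of 8 smooth muscle and 4 of 5 endothelial markers. The same was so for 4 of 4 T cell and 5 of 5 red blood cell markers, and for 21.2% of all tested genes. It held for 0 of 8 secretory epithelium, 0 of 5 prostate and 0 of 5 skeletal muscle markers. The endothelial markers summed to 96.0 TMM-scaled CPM there and to 41.8 to 55.4 in the other libraries. The smooth muscle sum, given beside Hspb1, was also lower in 3-month and 13-month replicate 1 than in the other libraries of those ages, as was Hspb8. At 21 months the order differed: the muscle sum was 3105 in replicate 1 and 4116 in replicate 3, and Hspb8 stood at 26.9 and 22.2. The part of these cell types in the values of Hspb8, Bag3, Hspb7, Hspa12a and Hspa12b was not tested.

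Of 10 J-domain genes 7 had positive differences at 21 against 3 months, with a median of 0.194. Dnaja4, a cytosolic HSP70 partner, stood at 47.4 TMM-scaled CPM in 21-month replicate 1, at 7.42 and 6.63 in replicates 2 and 3, at 6.26 to 8.68 at 13 months and at 3.11 to 4.04 at 3 months. Its log2 difference was 2.47 ± 0.699 (adjusted p = 0.0829) with all libraries and 0.93 (adjusted p = 0.0461) without replicate 1, and over all alternatives its adjusted p ran from 0.0126 to 0.271. Dnajc7, which bridges HSP70 and HSP90, was at -0.26 ± 0.141 at 13 against 3 months (adjusted p = 0.761). The HSP90 cochaperones had a median of 0.116 at 21 against 3 months, with 10 of 14 positive. In that list Cdc37, which loads kinases onto HSP90, was at -0.29 ± 0.118 (adjusted p = 0.176) and Fkbp4, an immunophilin of steroid receptor complexes, at -0.39 ± 0.171 (adjusted p = 0.198). By library totals alone the signs of Cdc37 and Fkbp4 turned, to 0.32 and 0.202.

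The cytosolic chaperonin TRiC, which folds actin and tubulin, had mostly negative differences, with 1 of 8 subunits positive at 21 against 3 months and a median of -0.148. Its subunits of smallest p were Cct5 at -0.30 ± 0.128 (adjusted p = 0.184) and Cct6a at -0.23 ± 0.112 (adjusted p = 0.232), and by library totals alone they stood at 0.319 and 0.385. The other mitochondrial chaperones and proteases had a median of -0.081, with 2 of 10 positive. Among them Clpb, a mitochondrial disaggregase, stood at 42.5 to 47.4 TMM-scaled CPM at 3 months and at 29.2 to 34.9 at 21 months. Its log2 difference was -0.45 ± 0.103, with an adjusted p of 0.0568 in edgeR. Over all alternatives the adjusted p ran from 0.00574 to 0.522, the lowest in DESeq2. By library totals alone the log2 difference of Clpb turned positive, at 0.146. Dnaja3, the mitochondrial J-domain protein, differed by 0.47 ± 0.143 at 13 against 3 months (adjusted p = 0.375).

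Of 10 chaperones of the endoplasmic reticulum, 6 were highest of the 9 libraries in 21-month replicate 1, as were 16.8% of all tested genes, and 3 were highest in 3-month replicate 1. Hspa5, the HSP70 of that compartment, stood at 1963 TMM-scaled CPM in 21-month replicate 1 and at 503 to 1125 in the other libraries. None of the 10 was called at 21 against 3 months, against 2.02% of all tested genes. In that comparison 5 of 10 were positive with a median of 0.102, and Dnajb11 was at -0.50 ± 0.251 (adjusted p = 0.255). Pdia4, a disulfide isomerase, stood at 536 CPM in 21-month replicate 1 and at 101 to 256 elsewhere, a log2 difference of 0.83 ± 0.555 at 21 against 13 months (adjusted p = 0.492). Of 11 tested immediate-early genes, which are induced within minutes by many stimuli, 1 was called higher at 21 than at 3 months, against 2.02% of all tested genes. For 7 of 11 all 21-month libraries lay above all 3-month ones, against 14.8% of all tested genes. The called gene was Socs3, the feedback inhibitor of cytokine signalling, at 2.05 ± 0.356 (adjusted p = 0.0329), and the median of that list was 0.923. Socs3 was at a low level, with means of 0.557 TMM-scaled CPM at 3 months and 2.3 at 21 months. Without any one of the 3-month libraries, or of 13-month replicate 2 or 3 or 21-month replicate 2, or with 21-month replicate 3 alone, the Socs3 call was lost, at adjusted p-values from 0.0515 to 0.184. The log2 difference itself was 1.77 to 2.33 with each library left out and 1.82 with replicate 3 alone.

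**Figure D4:**
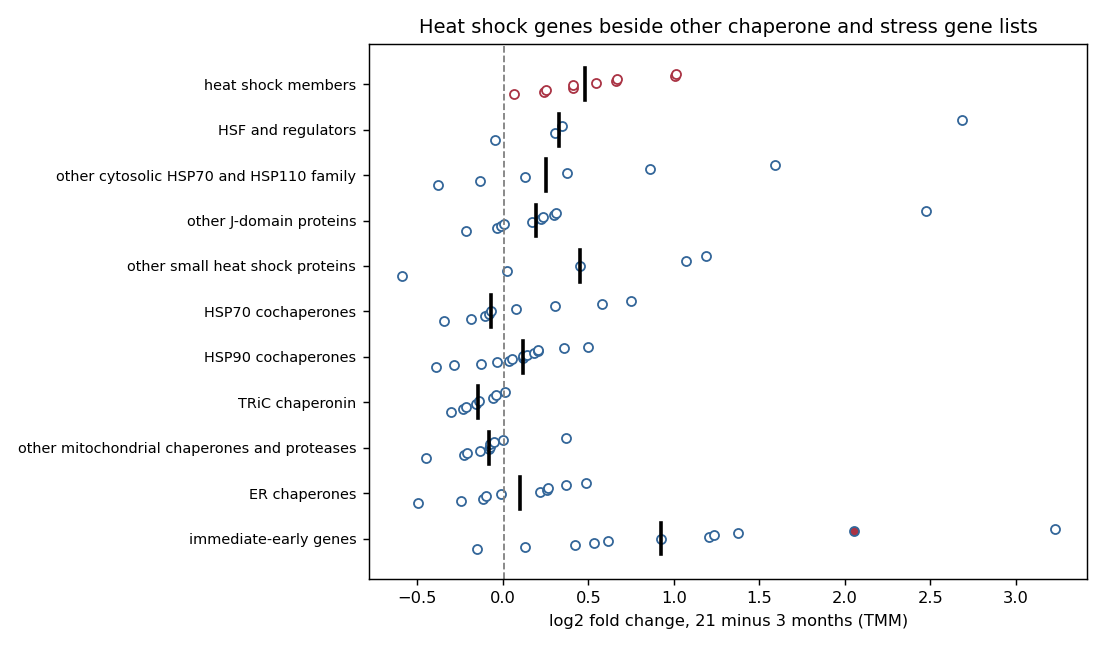
Log2 fold change at 21 against 3 months (x axis) of the 10 heat shock protein genes and of the genes in 10 other lists (rows), with a black bar at each list's median, a dashed line at the median of all tested genes and a filled point for an adjusted p under 0.05. The heat shock members all lie above 0, TRiC subunits lie mostly below it, and the only filled point is Socs3 among the immediate-early genes.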

How the data were processed

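Whole-number read counts per Ensembl gene were deposited by the authors, made with HISAT2 and featureCounts on GRCm38 (mm10), per the submitters' processing notes. Versions, annotation, strand setting and the treatment of multiply mapped reads are not given in the sources used here. RNA was total RNA extracted with TRIzol, and the labels name the assay lncRNA-seq. Each of the 9 columns was assigned to its library by name.

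Symbols and coordinates came from GENCODE M21, which matched 53274 of 53379 identifiers (the other 105 held 0.00839% of counts), and exon length is the merged length of all annotated exons. Low-count genes were set aside with edgeR 4.0.16 (filterByExpr on age, with a minimum count of 10 and a total of 15), leaving 16067. After TMM scaling, a model with a term for each age was fitted over the 9 libraries. The test was edgeR's quasi-likelihood F (R 4.3.3; 6 residual and 3.63 prior degrees of freedom), with Benjamini-Hochberg adjustment over all tested genes and a threshold of 0.05. Log2 differences are older minus younger, and SE is the absolute log2 difference divided by the square root of F. Intervals of log2 differences include the dispersion estimated between the libraries, and floors cover counting error only. Correlations used log2 CPM with a prior count of 2.

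The members and lists were chosen with earlier results of these data known. Named beside the 10 members are, per list, up to 4 called genes per comparison or otherwise the 2 genes of smallest p, and Hspa5 was added after its values were seen. The 5 most similar genes exclude predicted genes. Alternatives were DESeq2 1.42.0, limma-voom (limma 3.58.1), DESeq2 size factors, library totals, TMM with the 50 top genes left out, no or a stricter low-count filter, a fit on the 6 libraries compared, a replicate block, the summed HSP70 pair, each library left out, and 21 months as replicate 3 alone. The scripts were also run on simulated counts drawn from the 3-month means, with no outlying library. That run does not test how the outlying 21-month libraries affect the results.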

Additional observations from a re-analysis of the deposited data

How the results depend on the processing

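No heat shock member was called between 13 and 3 months under any alternative run. Between 21 and 3 months the count was 0 under all alternatives except library totals alone (9) and leaving out 21-month replicate 3 (2), a range of 0 to 2 when each library was left out. Between 21 and 13 months the range was 0 to 1. The count over all genes was 73 at 13 against 3 months, and 211 in DESeq2, 33 with at least 10 counts in all 9 libraries, 235 with only the 6 libraries compared, 229 with 21 months as replicate 3 alone and 1 to 150 with each library left out. It was 325 at 21 against 3 months, and 1503 in DESeq2, 154 in limma-voom, 5695 by library totals, 728 with every counted gene, 69 with at least 10 counts in all 9 libraries, 112 with only the 6 libraries, 57 with replicate 3 alone and 0 to 2349 with each library left out. It was 1 at 21 against 13 months, and 420 in DESeq2, 3 in limma-voom, 1240 by library totals, 5 with every counted gene, 0 with only the 6 libraries and 0 to 1244 with each library left out. The cause of these shifts was not tested. Deviations of libraries with the same replicate number correlated at -0.17 to 0.208. With 3 libraries per age these values cannot settle whether the numbers pair libraries, and the labels do not say. A replicate block gave 45, 442 and 3 calls in the 3 comparisons and 0 members called in each.

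Directions turned only for values that had not been called in edgeR with TMM and all libraries, though some were called under another setting. Clpb at 21 against 3 months was called in DESeq2 at -0.447 and stood at 0.146 by library totals. Hspa1b and Dnajb1 were called without 21-month replicate 3, at 1.36 and 0.771, and turned negative with replicate 3 alone. Hsp90aa1, Hspe1 and Hsph1, called by library totals, turned negative there as well. At 13 against 3 months, leaving out each library gave -0.162 to 0.136 for Hspa1a, -0.442 to 0.0983 for Hspa1b, -0.333 to 0.047 for Hsp90aa1, -0.183 to 0.117 for Hsp90ab1, -0.0577 to 0.157 for Dnajb1, -0.036 to 0.352 for Hspb1, -0.0966 to 0.148 for Hspe1 and -0.078 to 0.711 for Hsph1. Library totals gave 0.0513 for Hspa1a and 0.0437 for Hsp90ab1. At 21 against 3 months the left-out range was -0.0339 to 0.412 for Hsp90aa1, -0.00872 to 0.386 for Hspe1 and -0.0317 to 0.206 for Hspd1. With replicate 3 alone the values were -0.202 for Hspa1b, -0.214 for Hsp90aa1, -0.106 for Dnajb1 and for Hspe1, -0.296 for Hspd1 and -0.0546 for Hsph1. Library totals gave 0.32 for Cdc37, 0.202 for Fkbp4, 0.319 for Cct5, 0.385 for Cct6a, 0.146 for Clpb and 0.139 for Dnajb11. At 21 against 13 months the left-out range was -0.0272 to 0.368 for Hspe1, -0.0423 to 1.07 for Hsph1 and -0.342 to 1.21 for Pdia4. With replicate 3 alone the values were -0.114 for Hspa1b, -0.285 for Hspa8, -0.0877 for Hsp90aa1, -0.18 for Dnajb1, -0.117 for Hspe1, -0.173 for Hspd1, -0.493 for Hsph1 and -0.203 for Pdia4. Depth limits Hspa1a most, with 79 to 418 counts per library.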
